A study of Mus musculus with 6 samples.

Results

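The classical protein tyrosine phosphatases, the gene family of the drug target Ptpn11, were followed in mouse glioma cells given SHP099, an allosteric inhibitor that holds the phosphatase SHP-2 in its closed, inactive form. Ptpn11 (ENSMUSG00000043733) encodes SHP-2. The family was taken as every gene whose symbol is Ptpn with a number or Ptpr with a letter, which gave 38 of the 53346 gene symbols in the deposited files, 17 non-receptor (Ptpn) and 21 receptor-named (Ptpr) genes. The treated cells received 5 or 10 µM SHP099 and the untreated cells 0 µM. In the labels, the cells of all doses are tumor cells of astrocyte source with the genotype Ink4a/Arf-/- and with PDGFRa and PDGF-A, the growth factor receptor and its ligand. The promoters of these genes, the number of clones and how long the cells were treated are not given in the labels. A dose consists of 1 library of polyadenylated RNA, read in lanes 6 and 7. The lanes are repeat runs, so a dose has n = 1, no test between doses is possible, and the lane spread covers sequencing error only. Values are FPKM, fragments scaled to the length of the transcript and to the depth of the file, so levels can be set side by side between genes.

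Protein tyrosine phosphatases remove phosphate from tyrosines with a cysteine that forms a short-lived bond with the phosphate, which a nearby arginine holds in place. Non-receptor members work in the cytoplasm and are placed by domains such as SH2, FERM or Sec14, while receptor members span the plasma membrane, many of them with a pair of phosphatase domains of which the membrane-distal one is weakly active or inactive. Most members oppose receptor tyrosine kinases; SHP-2 is known as an exception, since it is recruited by its SH2 domains to docking proteins such as Gab1 and carries the signal of receptors like PDGFRa on to RAS and ERK.

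The catalytic signature, HCxxGxxR with x for any residue, was read in frame in the longest coding transcript of each member in GENCODE M21 (GRCm38). All 37 members with a coding transcript held it, 28 in a single copy and 9 in 2 copies, and Ptprv had no coding transcript in that annotation. In the longest coding transcript of Ptpn11 the catalytic cysteine was codon 463 of 597, a position that can differ in other transcripts. The 10 codons from the histidine on are printed for the target, its closest paralog Ptpn6 and several members the results turn on, with the codons of the catalytic cysteine and the phosphate-binding arginine in capitals.
Ptpn11: cacTGCagcgctgggattggcCGGacagga
Ptpn6: catTGCagcgctggcatcggcCGCacgggc
Ptpn1: cacTGCagcgccggcatcgggAGGtcaggg
Ptpn13: cacTGCagcgctggcattggaCGCtcagga
Ptpra membrane-proximal: cacTGCagtgcaggtgtagggCGCactggc
Ptprs membrane-proximal: cacTGCagcgcgggtgtggggCGCactggc
Ptprg: cacTGCagcgctggtgtgggcAGGacaggc
Ptprk membrane-proximal: cacTGCagtgctggtgctgggCGCacaggc
Ptprk membrane-distal: cacTGCttgaatggcggtgggCGCagtggc
Ptprm membrane-distal: cacTGCttgaacggaggaggcCGCagtggt
Ptprn: cacTGCagtgacggtgcagggAGGacaggc
The cysteine and arginine codons are in each of these because the search required them. Of the 30 bases, 6 in Ptpn6 and 7 in Ptpn1 differed from Ptpn11, as did 4 in Ptpn13 and 5 in Ptprg. Silent changes are included, so these counts do not rank the proteins by likeness to SHP-2. The codons printed for Ptpn6 encode the same residues as those of Ptpn11. The membrane-distal copies of Ptprk and Ptprm stood farthest among the printed ones, with 13 and 14 bases unlike Ptpn11, and Ptprn, a granule protein with impaired catalysis, had 10. The membrane-proximal copy of Ptprt, not printed, also had 10.

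The cells were checked against their labelled source first. Of 10 astrocyte markers, 4 reached 1 FPKM (Slc1a3, Gja1, Sox9 and Glul), Aqp4 was at 0 in all 6 files and Gfap did not exceed 0.0527 FPKM. The marker list summed to 76.1 and 77.5 FPKM at 0 µM, 64.2 and 62.6 FPKM at 5 µM, and 57.7 and 60.7 FPKM at 10 µM. All 8 proliferation markers fell at both doses, and their sums were 1159 FPKM in each lane at 0 µM, 249 and 234 FPKM at 5 µM, and 148 and 147 FPKM at 10 µM. Of 7 fibroblast markers 5 were compared and 4 rose, with sums of 2712 and 2728 FPKM at 0 µM, 5183 and 5204 FPKM at 5 µM, and 4873 and 4889 FPKM at 10 µM. Fewer cells of a type and less RNA per cell cannot be told apart in such samples, and the part of these shifts in the differences between doses was not tested. Mitochondrial transcripts took 4.85% and 4.92% of the FPKM sum at 0 µM, 7.10% in each lane at 5 µM, and 7.99% and 8.18% at 10 µM, the small nucleolar RNA Snora62 left out, and their part in the differences was not tested. Depth recovered from the FPKM was lower at the higher doses, with 47300000 and 47580000 fragments per lane at 0 µM, 37980000 and 38260000 fragments at 5 µM, and 30740000 and 31080000 fragments at 10 µM. Cdkn2a, the Ink4a/Arf gene, stood at 527 to 826 FPKM in these files; the deposited gene values do not show whether those fragments lie inside the deleted part.

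Ptpn11 was among the most abundant members and had overlapping values at all doses. Its lane values were 60.4 and 57.6 FPKM at 0 µM, 56.8 and 60.03 FPKM at 5 µM, and 58.5 and 57.0 FPKM at 10 µM. The lanes of the 3 doses overlapped, and the gap between the lanes of each dose was larger than any gap between dose means. The log2 difference, taken between lane means of log2(FPKM + 1), was -0.03 at 10 against 0 µM (range over the 4 lane pairs -0.08 to 0.02), -0.01 at 5 against 0 µM (-0.09 to 0.06), and -0.02 at 10 against 5 µM (-0.07 to 0.04). Behind these values stand about 12752 to 20558 fragments per file, so counting error was small beside the lane spread. The sign of so small a difference depends on the scaling: with files scaled to equal sums it was 0.18 at 10 against 0 µM, where the median of all genes shifted to 0.17. Among the genes compared, Ptpn11 lay above 85.1% by level at 0 µM and above 86.3% at both 5 and 10 µM.

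**Figure D1:**
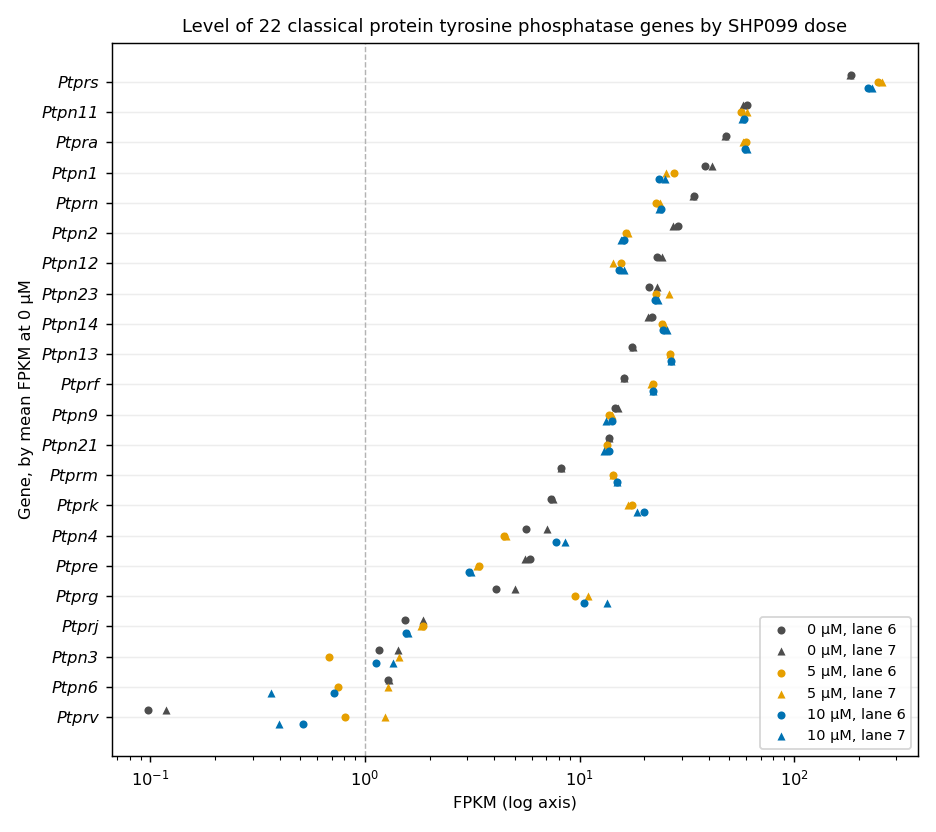
FPKM on a log axis of the 22 members compared, by lane file, with doses 0, 5 and 10 µM from dark to blue and lanes as circles and triangles; the dashed line marks 1 FPKM. Ptprs lies apart at 183 to 256 FPKM, Ptpn11 holds 56.8 to 60.4 FPKM in all files, and Ptpra moves up to it at both doses.

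Of the 38 members, 22 reached a mean of 1 FPKM in at least 1 dose and were compared, 12 of the 17 non-receptor and 10 of the 21 receptor genes. Ptprs, the LAR-type receptor that binds heparan and chondroitin sulfate proteoglycans, was the most abundant. It had 184 and 183 FPKM at 0 µM, 247 and 256 FPKM at 5 µM, and 221 and 230.2 FPKM at 10 µM, and alone made up 32.6% to 40.2% of the FPKM summed over all members in a file. Ptpn11 supplied 9.13% to 10.8% of that sum. At 0 µM Ptpn11 ranked second, with no overlap with Ptprs above or Ptpra below. Ptpra, which activates Src family kinases by removing their inhibitory phosphate, had 48.2 and 47.9 FPKM at 0 µM, 59.5 and 57.6 FPKM at 5 µM, and 59.3 and 60.1 FPKM at 10 µM. Its lanes overlapped those of Ptpn11 at 5 µM and lay just above them at 10 µM. Next at 0 µM came Ptpn1 with a mean of 39.96 FPKM, Ptprn with 33.9 FPKM, Ptpn2 with 28.02 FPKM and Ptpn12 with 23.5 FPKM, each apart from its neighbour by more than the lanes, except that Ptpn12 overlapped Ptpn23.

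A member was called higher or lower where the lane means differed by at least 1.5-fold on the log2(FPKM + 1) scale and all 4 lane pairs had the same sign. At 10 against 0 µM 3 of the 22 members were higher and 3 lower, where the rule called 15.7% of the 12567 genes compared higher and 19.1% lower. At 5 against 0 µM 4 members were higher and 3 lower, with 14.1% and 16.8% of all genes. Both shares lie near the background. Among the 4 higher members, Ptprv passed the level only through 5 µM, the dose where it was highest, so its count is tied to the filter. Between the treated doses, 10 against 5 µM, 1 member was higher and 0 lower, beside 0.414% and 1.35% of all genes, and the comparisons with 0 µM share the untreated library. The median log2 difference of the members was 0.01 at 10 against 0 µM and that of all genes -0.03. Its size without sign had a median of 0.42 in the members and 0.41 in all genes. On the deposited FPKM, Ptpn11 had the smallest log2 difference of the 22 in both comparisons with 0 µM, and 4.18% of all genes at 10 against 0 µM and 2.08% at 5 against 0 µM had a smaller one. Its place as the smallest was not held under every alternative: after trimmed mean, median ratio or equal-sum scaling, with lane 6 alone and without lane 7 of 0 µM other members, among them Ptpn21, Ptprj or Ptpn14, were nearer 0 in both comparisons.

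**Figure D2:**
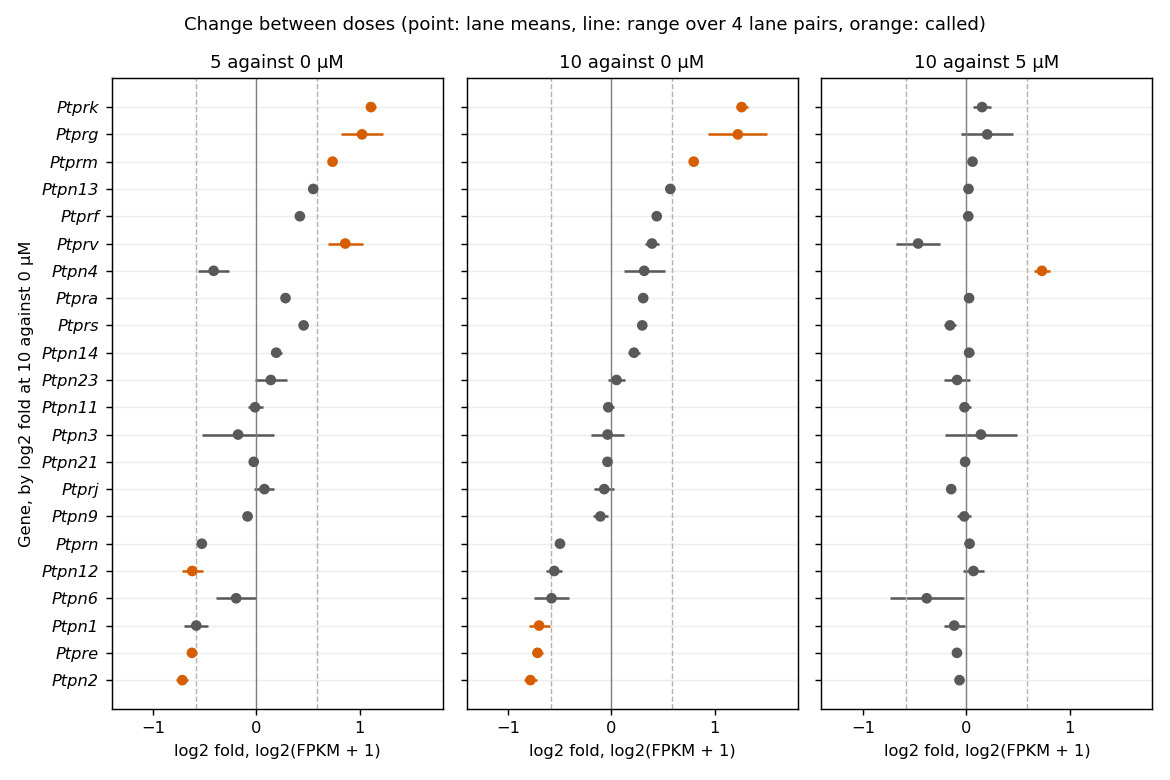
Log2 difference of each compared member at 5 against 0 µM, 10 against 0 µM and 10 against 5 µM; points are differences of lane means, lines the range over 4 lane pairs, dashed lines the 1.5-fold limits and orange the members called. Ptprk, Ptprg and Ptprm lie at the upper end against 0 µM, Ptpn2, Ptpre and Ptpn1 at the lower end, and Ptpn11 lies at 0.

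The members called higher at both doses were the receptors Ptprk, Ptprm and Ptprg. Ptprk and Ptprm carry MAM and immunoglobulin domains that bind the same protein on a neighbouring cell, and Ptprg carries a carbonic anhydrase-like domain that binds contactins. Ptprk had 7.38 and 7.51 FPKM at 0 µM, 17.6 and 16.8 FPKM at 5 µM, and 19.9 and 18.5 FPKM at 10 µM. All treated lanes lay above the untreated ones, with a log2 difference of 1.26 at 10 against 0 µM (1.20 to 1.32) and 1.11 at 5 against 0 µM (1.06 to 1.15). Ptprg had 4.09 and 5.00 FPKM at 0 µM, 9.54 and 10.9 FPKM at 5 µM, and 10.5 and 13.5 FPKM at 10 µM. Its log2 difference was 1.22 at 10 against 0 µM and 1.02 at 5 against 0 µM, and its lanes were farther apart than those of Ptprk, with 0.94 to 1.51 over the lane pairs at 10 against 0 µM. These differences exceeded those of 91.8% of all genes for Ptprk and 91.2% for Ptprg. Ptprm had 8.20 and 8.16 FPKM at 0 µM, against which 14.3 FPKM in each lane at 5 µM and 14.9 FPKM in each lane at 10 µM gave log2 differences of 0.74 at 5 µM and 0.80 at 10 µM. Another annotated gene on the same strand covers 5.18% of the exon bases of Ptprm, so its reads may be split. The lanes summed over these 3 genes came to 19.7 and 20.7 FPKM at 0 µM, 41.4 and 41.98 FPKM at 5 µM, and 45.3 and 47.0 FPKM at 10 µM, which is 2.29 times the untreated sum at 10 µM. Ptprk and Ptprg were called in both comparisons with 0 µM under all 17 alternatives that gave a fold, and Ptprm at 5 against 0 µM under 15 of them, the lowest 0.55 with a pseudocount of 5 FPKM. Several of these alternatives, such as the filters on level, cannot alter the fold of a member.

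The other members of the MAM and carbonic anhydrase-like types were scarce. Ptpru, of the same MAM family, did not exceed 0.251 FPKM but was above 0 in every file, with about 10.3 to 62.7 fragments. Ptprt was near the detection limit and did not exceed 0.00329 FPKM. Ptprz1, the relative of Ptprg that binds pleiotrophin and is known from oligodendrocyte precursors and human gliomas, was at 0 in 5 files and at 0.00485 FPKM, about 1 fragment, in the other one. A count of 3 fragments would be 0.00805 to 0.0125 FPKM for it. No oligodendrocyte lineage marker of 8 reached 1 FPKM, and Olig1, Olig2 and Mag were at 0.

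**Figure D3:**
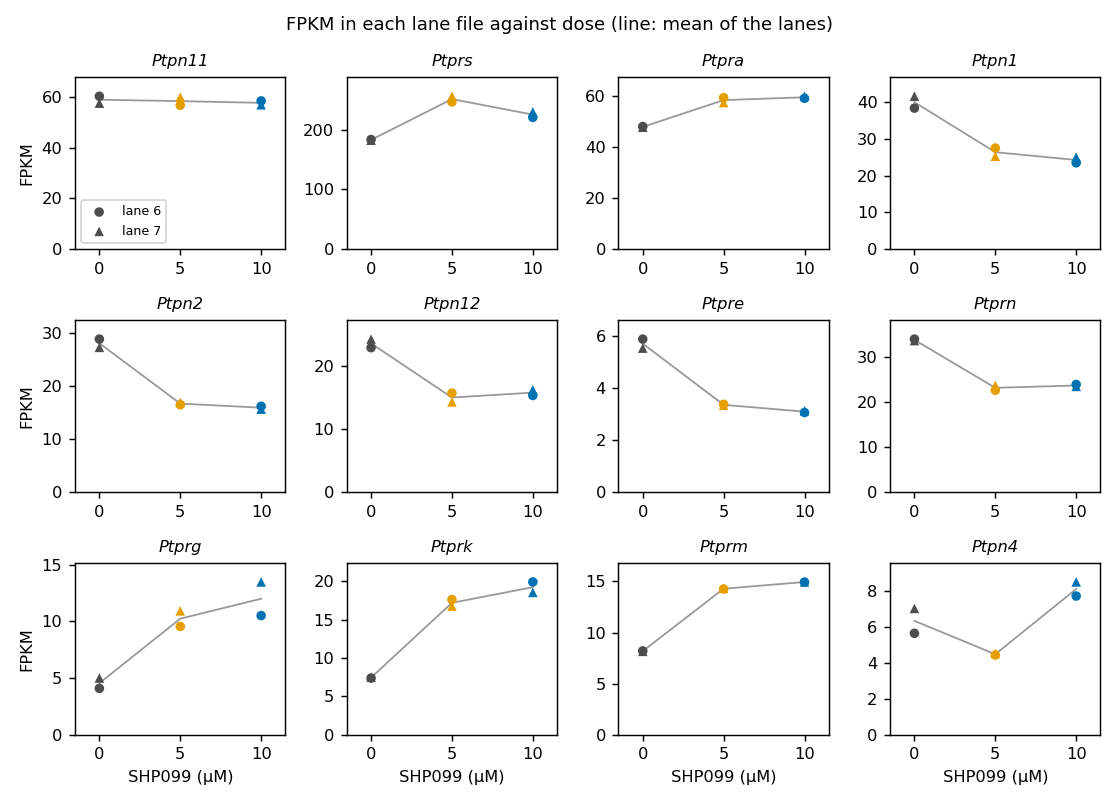
FPKM of 12 members against SHP099 dose, circles for lane 6, triangles for lane 7 and a line through the lane means, each panel from 0. Ptpn11 is level at 57.6 to 60.4 FPKM at 0 µM and 57.0 to 58.5 FPKM at 10 µM, Ptprk, Ptprg and Ptprm step up by 5 µM, and Ptpn1, Ptpn2, Ptpn12 and Ptpre step down by 5 µM.

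The members that fell included both genes of the PTP1B type. Ptpn1 encodes PTP1B, which sits on the endoplasmic reticulum and dephosphorylates the insulin and PDGF receptors, and Ptpn2 encodes TC-PTP, which acts on JAK and STAT proteins. Ptpn1 had 38.3 and 41.6 FPKM at 0 µM, 27.5 and 25.2 FPKM at 5 µM, and 23.5 and 25.0 FPKM at 10 µM. It was lower by log2 -0.70 at 10 against 0 µM (-0.80 to -0.60), and its -0.58 at 5 against 0 µM (-0.70 to -0.47) just missed the limit. Ptpn2 had 28.8 and 27.2 FPKM at 0 µM, 16.4 and 16.9 FPKM at 5 µM, and 16.1 and 15.6 FPKM at 10 µM, with log2 differences of -0.78 at 10 and -0.72 at 5 against 0 µM. Their summed FPKM at 10 µM was 0.590 of that at 0 µM. Ptpre, the close relative of Ptpra, fell too, with 5.90 and 5.55 FPKM at 0 µM, 3.38 and 3.34 FPKM at 5 µM, and 3.07 and 3.13 FPKM at 10 µM (log2 -0.71 at 10 and -0.62 at 5 against 0 µM). Ptpra had log2 differences of 0.31 and 0.28 in the same comparisons, so the genes of this pair had opposite signs, and Ptpra was not called. At 10 against 0 µM with files scaled to equal sums, Ptpn1 at -0.49, Ptpn2 at -0.58 and Ptpre at -0.55 were no longer called, though still below 0. With a pseudocount of 5 FPKM Ptpre was at -0.41 at 10 against 0 µM and was not called. When lane 6 of 0 µM or lane 6 of 5 µM was left out, Ptpn1 was also called at 5 against 0 µM (-0.64).

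Of the PEST-type phosphatases, which trim phosphate from adhesion and immune signalling proteins, Ptpn12 alone was compared. It had 22.9 and 24.2 FPKM at 0 µM, 15.7 and 14.3 FPKM at 5 µM, and 15.3 and 16.2 FPKM at 10 µM. It fell at 5 against 0 µM (log2 -0.62, -0.72 to -0.52) and missed the limit at 10 against 0 µM (-0.55, -0.63 to -0.47), while the treated lanes of both doses overlapped. The call at 5 µM was lost when lane 7 of 0 µM (-0.58) or lane 7 of 5 µM (-0.56) was left out. It was also lost with lane 6 alone (-0.52), a pseudocount of 5 FPKM (-0.52) and equal sums without Snora62 (-0.45). A call at 10 µM was gained when lane 6 of 0 µM (-0.592) or lane 7 of 10 µM (-0.591) was left out. Ptpn18 reached 1.10 FPKM in a single file and Ptpn22, a lymphocyte phosphatase, 0.402 FPKM at most.

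The 5 FERM-domain phosphatases, which sit at the membrane and the cytoskeleton, were all compared, and 0 were called against 0 µM. Ptpn13, a large PDZ and FERM protein, had 17.6 and 17.8 FPKM at 0 µM, 26.3 FPKM in each lane at 5 µM, and 26.8 and 26.7 FPKM at 10 µM. Treated lanes were all above untreated ones, and its log2 difference of 0.57 at 10 against 0 µM lay just under the limit of 0.58. Ptpn13 was called at 10 against 0 µM with a trimmed mean scaling (0.61) and a median ratio scaling (0.60). It was also called there with equal sums, with or without Snora62 (0.78), and with a pseudocount of 0.1 FPKM (0.59). At 5 against 0 µM it was called with equal sums without Snora62 (0.72). Ptpn14, which binds the coactivator YAP, differed by 0.22 at 10 against 0 µM, and Ptpn21 by -0.04. Ptpn4, a PDZ and FERM protein known from synapses, was the only member called between the treated doses. It had 5.66 and 7.05 FPKM at 0 µM, 4.45 and 4.54 FPKM at 5 µM, and 7.74 and 8.52 FPKM at 10 µM, so it was lowest at 5 µM and did not follow the dose order. The log2 difference was 0.73 at 10 against 5 µM (0.66 to 0.81) and 0.32 at 10 against 0 µM, and the untreated lanes differed from each other by 0.27. With a pseudocount of 5 FPKM the value at 10 against 5 µM was 0.47 and was not called. Ptpn3 stayed between 0.682 and 1.44 FPKM.

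Ptpn9, which carries a Sec14 lipid-binding domain, and Ptpn23, an endosomal sorting protein, stayed near their untreated levels. Ptpn9 differed by -0.11 and Ptpn23 by 0.05 at 10 against 0 µM. Ptpn6, the SH2-domain paralog of Ptpn11 that is known as SHP-1 of blood cells, was scarce: it had 1.28 and 1.29 FPKM at 0 µM, 0.745 and 1.28 FPKM at 5 µM, and 0.715 and 0.364 FPKM at 10 µM, against the 56.8 to 60.4 FPKM of Ptpn11. Its 10 µM lanes were both below the untreated ones, with log2 -0.58 (-0.75 to -0.41), and rest on few fragments, from about 23.4 to 127 per file. Without the lane 6 file of 10 µM the difference was called (-0.74), and with a pseudocount of 0.1 FPKM Ptpn6 was called at 10 against 0 µM (-1.17) and at 10 against 5 µM (-0.81). Ptprc, the leukocyte phosphatase CD45, did not exceed 0.0499 FPKM, and of 10 microglia and leukocyte markers Tmem119 and Cd68 alone reached 1 FPKM, with Tyrobp at 0. Tmem119 rose, with 63.5 and 64.3 FPKM at 0 µM, 117 and 121 FPKM at 5 µM, and 124 and 130.4 FPKM at 10 µM (log2 0.98 at 10 and 0.89 at 5 against 0 µM), and Cd68 lay between 1.51 and 2.27 FPKM.

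Among the other receptor members, the LAR type showed values above untreated without a call on the deposited FPKM. Ptprs differed by 0.30 at 10 against 0 µM (0.27 to 0.33) and 0.46 at 5 against 0 µM (0.42 to 0.49), and Ptprf, LAR itself, by 0.44 and 0.42. Ptprf had 16.04 FPKM in each lane at 0 µM, 21.95 and 21.6 FPKM at 5 µM, and 22.1 FPKM in each lane at 10 µM. With files scaled to equal sums, with or without Snora62, Ptprf was called higher at 10 against 0 µM (0.65). With Snora62 left out of the sums, Ptprf (0.59) and Ptprs (0.64) were called higher at 5 against 0 µM. The third LAR-type gene, Ptprd, was listed at 0 in both untreated lanes and reached 0.321 FPKM at most. Ptprn, a protein of hormone and neuropeptide granules, had 34.0 and 33.7 FPKM at 0 µM, 22.6 and 23.7 FPKM at 5 µM, and 23.9 and 23.5 FPKM at 10 µM. Its log2 difference of -0.50 at 10 against 0 µM missed the limit although no lanes overlapped. Its relative Ptprn2 had 0.0131 FPKM in 1 file and 0 in the others. Of 8 neuron markers 3 were compared and only Stmn2 fell (log2 -1.01 at 10 against 0 µM), and Snap25 and Dcx were at 0. Ptprj, which dephosphorylates the PDGF receptor, stayed between 1.54 and 1.86 FPKM. Ptprv, which has no coding transcript in GENCODE M21, passed the level only through 5 µM, with 0.0977 and 0.118 FPKM at 0 µM, 0.803 and 1.24 FPKM at 5 µM, and 0.513 and 0.398 FPKM at 10 µM, so its call at 5 against 0 µM (0.86) is tied to that filter and was lost with a pseudocount of 5 FPKM (0.24), while with 0.1 FPKM it was also called higher at 10 against 0 µM (1.41).

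Summed over all members, the receptor genes took 55.2% to 55.5% of the family's FPKM at 0 µM, 64.0% to 64.1% at 5 µM, and 62.5% to 63.2% at 10 µM. The lanes of the receptor sum were 310 and 309 FPKM at 0 µM, 399 and 408 FPKM at 5 µM, and 377 and 389 FPKM at 10 µM. Without Ptprs the receptor sum at 10 µM was 1.25 times that at 0 µM, and the non-receptor sum 0.906 times. The median log2 difference at 10 against 0 µM was 0.35 over the 10 receptor members compared and -0.04 over the 12 non-receptor members. Those 10 include Ptprv, which passed the level only through 5 µM. Members that bind and dephosphorylate the MAP kinases ERK and p38, Ptpn5, Ptpn7 and Ptprr, summed to 0.0808 FPKM at most in any file.

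**Figure D4:**
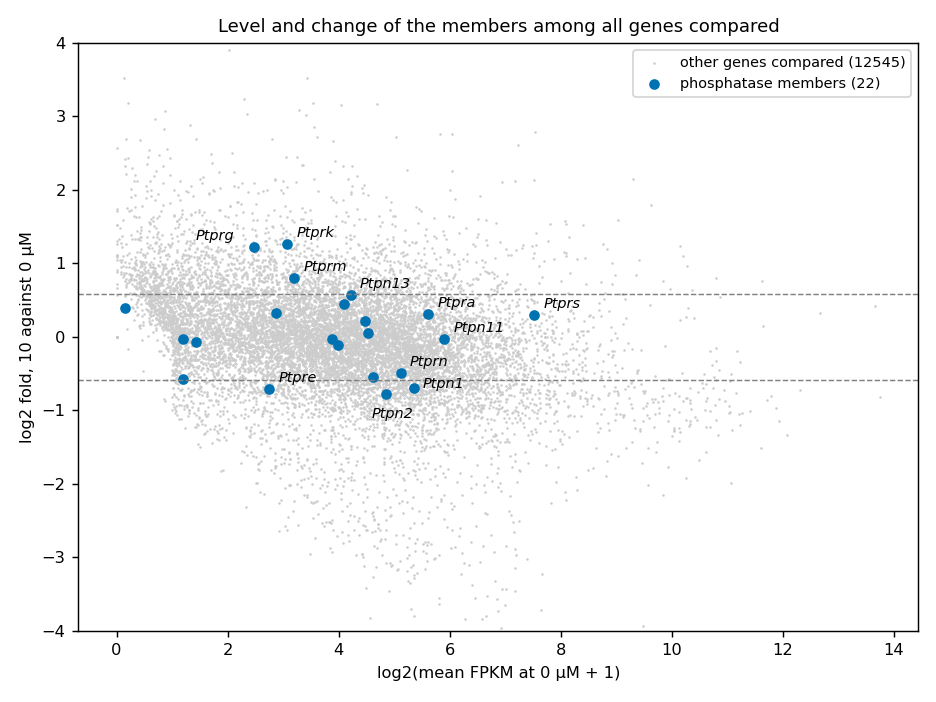
Log2 difference at 10 against 0 µM against log2(mean FPKM at 0 µM + 1) for the 12545 other genes compared in grey and the 22 members in blue, with the 1.5-fold limits dashed; 4 other genes lie beyond the plotted 4 log2 units. Ptpn11 lies near 0 at a high level, Ptprs is the most abundant member, and the members lie between Ptpn2 at -0.78 and Ptprk at 1.26.

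The remaining 16 members were under the level compared. Ptpn20 and Ptprh were at 0 in all 6 files, where 3 fragments would be 0.0216 to 0.0335 FPKM for Ptpn20 and 0.0185 to 0.0287 FPKM for Ptprh. Ptpn18, Ptpn22, Ptprq, Ptpru and Ptprd peaked at 0.251 to 1.10 FPKM, and the other 9, among them the endothelial Ptprb and the podocyte Ptpro, at 0.00329 to 0.0652 FPKM. These limits cover counting error only.

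CpG content was read in the promoters of members above and below that level. The window from 250 bases before to 50 after the start was taken from RefSeq (GRCm38.p6), which held 46 windows of 32 members. The ratio of CpG observed to that given by the base composition was taken per window, and some members had several windows. Its median was 0.85 in the 26 windows of 19 members compared and 0.46 in the 20 windows of 13 members not compared. In all 32851 windows of the table it was 0.38. The target Ptpn11 and the leukocyte gene Ptprc are printed because they lie near the ends of this range, with each CpG in capitals.
Ptpn11, chr5:121191348-121191647, minus strand: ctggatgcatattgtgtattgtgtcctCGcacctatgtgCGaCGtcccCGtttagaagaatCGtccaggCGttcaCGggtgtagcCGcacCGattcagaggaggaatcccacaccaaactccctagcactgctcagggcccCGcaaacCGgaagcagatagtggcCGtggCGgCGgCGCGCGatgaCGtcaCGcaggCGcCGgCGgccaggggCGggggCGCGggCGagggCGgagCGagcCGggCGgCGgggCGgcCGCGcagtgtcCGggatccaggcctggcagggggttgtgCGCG
Ptprc, chr1:138175077-138175376, minus strand: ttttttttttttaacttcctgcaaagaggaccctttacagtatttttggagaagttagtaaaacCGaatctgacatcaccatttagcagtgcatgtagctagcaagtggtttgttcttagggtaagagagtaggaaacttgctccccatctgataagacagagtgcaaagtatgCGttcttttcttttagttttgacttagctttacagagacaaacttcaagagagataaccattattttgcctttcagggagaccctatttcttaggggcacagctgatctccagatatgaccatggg
The Ptpn11 window held 37 CpG in 300 bases, a ratio of 1.07, and the Ptprc window 2, a ratio of 0.17. Single genes departed from the medians in both directions: Ptprt at 1.06 and Ptpru at 1.02 were not compared but were close to Ptpn11, Ptpn6 was compared and stood at 0.28, and a second Ptprc window stood at 0.48. The ETS core CCGGAA, searched on both strands, was in 6 of the 46 windows (13.0%), among them Ptpn11, Ptpn1 and Ptprg, beside 14.9% of all windows. The AP-1 site TGANTCA was in 2 windows, of Ptpre and Ptprh (4.35%), beside 7.81% of all. Neither motif contains the other. Members called and not called both held the ETS core, and a match describes these letters only.

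The proteins that dock SHP-2 and the ligands of the receptor members were read beside the phosphatases. Of 17 SHP-2 partners 12 were compared, 5 were higher and 0 lower at 10 against 0 µM, with a median log2 difference of 0.41 against -0.03 over all genes; 4 were higher and 0 lower at 5 against 0 µM. Over all genes 15.7% were higher and 19.1% lower at 10 against 0 µM, and 14.1% and 16.8% at 5 against 0 µM. Irs1, the insulin receptor substrate, had 6.997 and 7.06 FPKM at 0 µM, 25.6 and 25.2 FPKM at 5 µM, and 30.6 and 29.97 FPKM at 10 µM, a log2 difference of 1.96 at 10 against 0 µM. The membrane adaptor Pag1 rose by 0.92, the docking protein Gab1 by 0.68 and Gab2 by 0.66 at 10 against 0 µM. Pdgfra, the receptor the cells were made to carry, differed by -0.02 at 10 against 0 µM. Whether its FPKM includes the introduced gene cannot be told from the files. The other PDGF receptor gene, Pdgfrb, was called higher in both comparisons with 0 µM. Pdgfrb rose by 0.66 at 10 against 0 µM and by 0.80 at 5 against 0 µM.

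Of 28 ligands and partners of receptor phosphatases 11 were compared, 8 were higher and 0 lower in each comparison with 0 µM, beside the same shares of all genes, 15.7% and 14.1% higher and 19.1% and 16.8% lower at 10 and 5 against 0 µM, and their median log2 difference was 1.07 at 10 against 0 µM. Thbs1, which binds Ptprj, rose by 2.61 at 10 against 0 µM, the matrix protein Tnc by 2.49, the glypican Gpc6 by 1.81 and Ptn, pleiotrophin, by 1.28. Ptn had 17.0 and 15.9 FPKM at 0 µM, 53.9 and 56.1 FPKM at 5 µM, and 42.1 and 40.5 FPKM at 10 µM, while its receptor Ptprz1 was at the detection limit. Contactins, the partners of Ptprg, were at or near 0: Cntn1, Cntn4, Cntn5 and Cntn6 were at 0 in all files and Cntn2 reached 0.0124 FPKM. The fibroblast marker sums and the mitochondrial share were also higher at both doses, as given above, and their part in these differences was not tested.

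**Figure D5:**
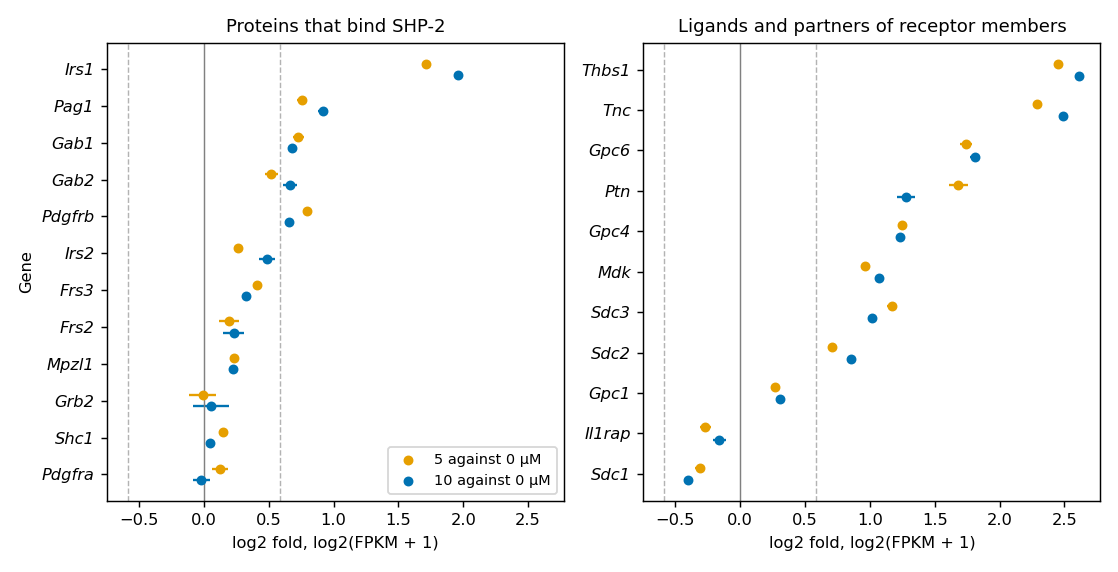
Log2 difference at 5 against 0 µM (orange) and 10 against 0 µM (blue) of the compared SHP-2 partners and receptor phosphatase ligands; points are differences of lane means, lines the range over 4 lane pairs and dashed lines the 1.5-fold limits. Irs1 at 1.96 leads the partners, Thbs1 at 2.61 the ligands, and Pdgfra and Shc1 lie near 0.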

How the data were processed

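The 6 deposited files each hold 1 FPKM value per gene for 1 lane of 1 library; the FPKM are the authors' own, per the file headers. Bowtie 0.12.2 and the build mm8 are named in the submitters' processing notes. How the FPKM were computed, and whether files were scaled to each other, is not given in the sources used here. FPKM were used as deposited, summed per symbol (no member had several entries). Genes were compared where some dose had a mean of 1 FPKM or more, which held for 12567 of 53346 symbols. Differences are between lane means of log2(FPKM + 1), and a call needs 1.5-fold and the same sign in all 4 lane pairs. The lane gap had a median of 0.05 to 0.06 on this scale. With 1 library per dose no p-value is given. The pseudocount understates the change of low genes.

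Fragments per file were recovered from the steps of low FPKM values in genes of 1 transcript of 1500 to 6000 bases, with 240 bases subtracted; 97.6% to 98.3% of 1309 to 1404 genes came out whole within 0.1. At 1 FPKM a 2 kb transcript has a counting error of 10.3% to 12.8% per lane.

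Gene models came from GENCODE M21, in which 53270 of 53460 identifiers were found, and promoters from RefSeq; neither is the build mm8, so no positions of members are given on mm8. Every member was described, and of each other list the counts and up to 4 called genes with the largest difference at 10 against 0 µM. Some further genes of these lists were named beside them. The members and lists were chosen with earlier results of these data known. The rule was tested on simulated data with noise taken from the lanes of 0 µM and changes placed only in genes of higher level. That simulation covers neither variation between cultures nor changes of low genes. Python 3.11.15, numpy 2.4.6, pandas 2.3.3 and matplotlib 3.10.9 were used.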

Additional observations from a re-analysis of the deposited data

How the results depend on the processing

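The 18 alternatives were planned. Ptprk and Ptprg kept their direction and their call at both doses in all of those that gave a fold, several of which cannot alter it. Scaling to equal sums gave 5 members higher and 0 lower at 10 against 0 µM, 2 higher and 5 lower at 5 against 0 µM, and medians of 0.18 (10 against 0), -0.20 (5 against 0) and 0.39 (10 against 5 µM), with Ptpn11 at 0.18 and -0.20 against 0 µM. Snora62 enters those sums, with 385860 FPKM in lane 6 of 5 µM and 0 in the other 5 files. Without it there were 5 higher and 0 lower at 10 against 0 µM, 7 higher and 0 lower at 5 against 0 µM, and medians of 0.22, 0.18 and 0.038, with Ptpn11 at 0.18 and 0.17. That scaling moved the median of all genes to 0.17 at 10 and 0.14 at 5 against 0 µM, and the calls over all genes to 23.8% higher and 12.6% lower at 10 against 0 µM and to 20.7% and 11.05% at 5 against 0 µM (9.71% and 23.95% with Snora62). With a pseudocount of 0.1, 5 members were higher at 10 against 0 µM and 2 lower at 10 against 5 µM; with 5 FPKM, 2 were higher and 1 lower at 5 against 0 µM and 0 higher at 10 against 5 µM. The 2-fold rule left 2 higher and 0 lower at 5 against 0 µM, 0 lower at 10 against 0 µM and 0 higher at 10 against 5 µM. A filter of 5 FPKM raised the median at 10 against 0 µM to 0.13. With lane 6 alone Ptpn11 was at -0.086 and with lane 7 alone at 0.058 at 5 against 0 µM, and lane 7 alone gave 2 members lower and a median of -0.031 at 10 against 5 µM. Leaving out 1 file at a time, the median at 10 against 0 µM was -0.03 to 0.077 (the highest without lane 7 of 0 µM), that at 10 against 5 µM -0.028 to 0.020, and 0 to 1 members were lower at 10 against 5 µM (Ptprv, without lane 6 of 5 µM). Of 1067 folds of single members under an alternative, 1018 kept their side of the rule, 19 lost a call and 27 gained one. The other 3, of Ptpn11 at 10 against 5 µM, moved by more than the lane spread without a call. Many of the 1018 could not change. No member had several entries, a filter on level does not alter a fold, and neither does leaving out a file of a dose outside the comparison. The causes were not tested. No paired analysis was possible because each dose has 1 library and its lanes are repeat runs. Depth limits the members under about 1 FPKM, and no value covers variation between cultures.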

Other observations

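Other phosphatases with the same cysteine chemistry, and the Eya family, which uses an aspartate, were read beside the classical members. Of 24 such genes 23 were compared, with 2 higher and 5 lower at 10 against 0 µM, beside 15.7% and 19.1% of all genes, and a median log2 difference of 0.01. The 2 higher genes were Eya1 (0.65) and Ptp4a3 (0.62). Ptp4a3 passed the level only through the treated doses, with means of 0.66 FPKM at 0 µM, 1.46 FPKM at 5 µM and 1.55 FPKM at 10 µM. Cdc25b and Cdc25c, which activate cyclin-dependent kinases, had the largest differences. Cdc25b had 88.9 and 86.3 FPKM at 0 µM, 20.4 and 20.5 FPKM at 5 µM, and 14.0 and 13.7 FPKM at 10 µM, a log2 difference of -2.57 at 10 against 0 µM, and Cdc25c fell by 2.49 on the log2 scale. Cdc25a (-0.96) and Cdc14a (-0.78) were also lower. The 8 proliferation markers fell in the same comparison, and their part in these differences was not tested.

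Src family kinases carry an inhibitory phosphate that Csk adds and Ptpra removes. Of 11 genes of this family and its inhibitory kinases, 6 were compared, 3 were higher and 0 lower in each comparison with 0 µM, beside 15.7% higher and 19.1% lower of all genes at 10 against 0 µM and 14.1% and 16.8% at 5 against 0 µM. Fyn rose by 0.84, Lyn by 0.81 and Frk by 0.80 at 10 against 0 µM. Lyn had 5.19 and 5.53 FPKM at 0 µM, 10.6 and 10.4 FPKM at 5 µM, and 9.80 and 10.5 FPKM at 10 µM. Src itself differed by -0.26. Csk, the kinase that sets the inhibitory phosphate, differed by -0.57 (-0.76 to -0.37) and was not called. Fgr and Blk, kinases of blood cells, were at 0 in all files.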
